A study of Mus musculus with 15 samples.

Results

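The genes of oxidative phosphorylation were examined in J1 mouse embryonic stem cells labelled as knockouts of Taf5l, Taf6l or Myc. Members were taken from the deposited table of counts by gene symbol, as the Nduf, Sdh, Uqcr, Cox4 to Cox8 and Atp5 families, cytochrome c1, cytochrome c and the protein-coding genes of the mitochondrial genome, with a mean of at least 100 counts over the 15 libraries. Of 37310 genes in the table, 91 met these terms, 78 encoded in the nucleus and 13 in mitochondria. The nuclear genes comprised 35 subunits of complex I, 4 of complex II, 9 of complex III, 12 of complex IV, 15 of ATP synthase (complex V) and the somatic cytochrome c gene. The symbols also drew in 2 genes that encode no subunit. Cox4nb, a neighbour of Cox4i1, encodes a part of the endoplasmic reticulum membrane complex, and Atp5sl is an assembly factor of complex I. These 2 were left out of counts of subunits, and counts of members include them. The least abundant members were Cox6b2 and Ndufb4, at means of 131 and 188 counts, and the nearest genes outside the minimum were Ndufa4l2, Atp5s and Cox7a1, at 71.0, 50.2 and 49.3 counts. All 91 members were abundant enough to be tested in every comparison.

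J1 is a wild-type mouse embryonic stem cell line, and the cells were kept in serum with leukaemia inhibitory factor. The Taf experiment held cells labelled Taf5l-KO, cells labelled Taf6l-KO and their J1 wild type (WT-Taf), and the Myc experiment held cells labelled cMyc-KO (Myc-KO) and a J1 wild type of its own (WT-Myc), with 3 libraries in each of the 5 groups. Both TAF proteins are subunits of SAGA, a transcriptional coactivator, while MYC binds DNA and drives growth genes. The labels state neither how the genes were disrupted nor how many clones were used, and 1 unexplained code recurs in what they say of each Myc-KO library. They also do not say that replicates were separate cultures, so the p-values rest on the spread among the libraries of a group, and that spread may be technical. Libraries held 14935631 to 27650813 counts. Values per library are given as CPM, counts relative to the library size scaled by TMM, and a gene is said to have risen or fallen where the Benjamini-Hochberg adjusted p of edgeR's quasi-likelihood test, over all genes tested, was under 0.05.

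Oxidative phosphorylation transfers electrons from NADH, through complex I, or from succinate, through complex II, to ubiquinone, complex III, cytochrome c and complex IV, which reduces oxygen. Complexes I, III and IV pump protons out of the mitochondrial matrix, and ATP synthase uses their return to make ATP. The subunits come from both genomes, so the nuclear and mitochondrial products must be assembled together. Mouse embryonic stem cells in serum and leukaemia inhibitory factor draw on both this pathway and glycolysis.

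Each knockout was first checked for its own target. Taf5l had 43.0, 42.9 and 41.7 CPM in Taf5l-KO, against 88.1, 85.3 and 84.5 CPM in WT-Taf (log2 fold change -1.02). Taf6l had 6.53, 7.17 and 6.06 CPM in Taf6l-KO, against 26.8, 26.3 and 25.2 CPM in WT-Taf (log2 fold change -1.99). Myc had 31, 28.5 and 28.0 CPM in Myc-KO, against 64.7, 68.8 and 66.7 CPM in WT-Myc (log2 fold change -1.19). No knockout library overlapped its wild type, and RNA of each target remained. Myc was also lower in Taf5l-KO (-0.69) and in Taf6l-KO (-0.83). Taf6l was lower in Taf5l-KO as well (-0.35, adjusted p = 0.00126), and Taf5l was lower in Myc-KO (-0.19, adjusted p = 0.0279). The 8 embryonic stem cell markers summed to 4240 to 4340 CPM in Taf5l-KO and 4210 to 4300 CPM in Taf6l-KO, against 4780 to 4870 CPM in WT-Taf, and to 6700 to 6930 CPM in Myc-KO, against 6010 to 6190 CPM in WT-Myc. No knockout overlapped its wild type in this sum. Markers of feeder fibroblasts summed to 7.84 to 9.07 CPM in Taf5l-KO and 9.21 to 9.33 CPM in Taf6l-KO, against 10.9 to 13.2 CPM in WT-Taf, and to 10.4 to 11.5 CPM in Myc-KO, against 9.43 to 10.7 CPM in WT-Myc. The marker sums of neuroectoderm, mesoderm, endoderm, trophectoderm and muscle lay between 0.313 and 6.19 CPM, and the part of these markers in the results was not tested.

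Myc-KO replicate 3 stood apart from the other libraries of its group in the mitochondrial transcripts. The 13 mitochondrially encoded mRNAs took 1.2%, 1.2% and 2.42% of counts in the Myc-KO libraries, against 2.66%, 2.41% and 1.87% in WT-Myc. The main counts of the Myc experiment, and those of the gene lists, are therefore given with and without that library. The libraries of the Myc experiment also held 0.103% mitochondrial ribosomal RNA in Myc-KO and 0.0537% in WT-Myc on average, where the Taf experiment held 5.02% in Taf5l-KO, 4.72% in Taf6l-KO and 5.46% in WT-Taf, although the labels give the same library protocol for all. Levels of mitochondrial transcripts are therefore compared only within an experiment.

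Promoter sequence was available from RefSeq (build GRCm38.p6) for 65 of the 78 nuclear members, as windows from 250 bases before to 50 bases after each start site. Sites of 4 factors tied to respiratory or growth genes were searched by their letters on both strands: NRF1 (GCGCA and GCGC with any 1 base between them), the ETS family that holds GABPA (CCGGAAG), YY1 (ATGGCGG) and the E-box that MYC and other factors bind (CACGTG). The NRF1 letters occurred in 17 of the 65 members (26.2%) and in 5.19% of all genes with a window. The ETS letters occurred in 16 (24.6%) against 9.93% of all genes, the YY1 letters in 11 (16.9%) against 4.69%, and the E-box letters in 7 (10.8%) against 8.09%. None of the 4 was present in 25 members. No match of one motif overlapped a match of another in these windows. The 27025 genes with a window were not limited to those expressed in these cells, whereas members were chosen by their counts. The 2 sets are therefore unlike, and whether other expressed genes have similar shares was not tested. A match describes the letters of the window and does not show binding.

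The promoters of 5 genes whose transcripts carry the results below are printed from 250 bases before to 30 bases after the start site, 5′ to 3′ on the strand of the gene, with capitals marking the motif letters on either strand. Cox6a1 (chr5:115348929-115349208, minus strand) moved in opposite directions in the Taf knockouts. Atp5k (chr5:108434370-108434649, minus strand) had the largest rise of a nuclear subunit in Taf5l-KO. Cox8a (chr19:7217587-7217866, minus strand) fell in Taf6l-KO. Ndufb4 (chr16:37654339-37654618, minus strand) and Ndufa7 (chr17:33824322-33824601, plus strand, the first of its 2 windows) fell in both Taf knockouts.
Cox6a1: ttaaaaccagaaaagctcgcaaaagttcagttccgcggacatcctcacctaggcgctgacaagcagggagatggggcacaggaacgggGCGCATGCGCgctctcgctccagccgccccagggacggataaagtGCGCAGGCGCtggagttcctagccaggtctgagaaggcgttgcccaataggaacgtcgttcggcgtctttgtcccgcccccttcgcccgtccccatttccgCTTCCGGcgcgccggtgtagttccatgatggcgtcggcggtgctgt
Atp5k: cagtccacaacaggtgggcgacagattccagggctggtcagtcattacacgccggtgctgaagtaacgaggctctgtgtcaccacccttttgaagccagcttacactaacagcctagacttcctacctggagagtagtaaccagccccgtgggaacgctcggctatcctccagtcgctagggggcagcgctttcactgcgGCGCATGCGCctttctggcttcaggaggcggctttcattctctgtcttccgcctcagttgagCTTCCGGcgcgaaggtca
Cox8a: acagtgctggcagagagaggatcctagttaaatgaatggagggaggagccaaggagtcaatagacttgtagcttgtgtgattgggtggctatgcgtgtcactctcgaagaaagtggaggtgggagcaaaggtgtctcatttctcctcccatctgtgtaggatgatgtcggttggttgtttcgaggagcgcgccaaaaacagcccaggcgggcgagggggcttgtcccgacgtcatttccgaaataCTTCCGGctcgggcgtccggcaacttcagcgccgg
Ndufb4: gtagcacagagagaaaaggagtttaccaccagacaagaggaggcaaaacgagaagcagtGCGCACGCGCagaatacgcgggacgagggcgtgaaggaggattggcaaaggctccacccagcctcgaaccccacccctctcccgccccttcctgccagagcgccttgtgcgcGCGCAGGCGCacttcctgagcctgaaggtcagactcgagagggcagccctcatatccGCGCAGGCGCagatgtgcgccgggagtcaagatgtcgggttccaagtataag
Ndufa7: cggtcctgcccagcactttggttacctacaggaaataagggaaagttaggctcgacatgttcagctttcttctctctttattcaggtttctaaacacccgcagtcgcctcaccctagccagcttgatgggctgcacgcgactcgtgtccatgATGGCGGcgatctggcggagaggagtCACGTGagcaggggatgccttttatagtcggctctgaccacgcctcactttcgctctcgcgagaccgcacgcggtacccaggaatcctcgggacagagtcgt

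Cox6a1 carries 2 NRF1 matches, first bases at -162 and -117 from the start, and an ETS match at -16. Atp5k carries an NRF1 match at -50 and an ETS match at 13, and Cox8a an ETS match at -5. Ndufb4 carries 3 NRF1 matches, at -191, -79 and -22, and Ndufa7 a YY1 match at -98 followed by an E-box at -72. Over all genes tested, 15.9% fell and 17.4% rose in Taf5l-KO, 18.2% fell and 19.1% rose in Taf6l-KO, and 19.5% fell and 15.2% rose in Myc-KO, and the counts that follow are small and were not tested. Of the 17 members with NRF1 letters, 4 fell and 2 rose in Taf5l-KO, 5 fell and 0 rose in Taf6l-KO, and 1 fell and 3 rose in Myc-KO. Of the 16 with ETS letters, 2 fell and 5 rose in Taf5l-KO, 5 fell and 0 rose in Taf6l-KO, and 0 fell and 2 rose in Myc-KO. The 11 with YY1 letters had 1 fall and 2 rises in Taf5l-KO, 3 falls and 1 rise in Taf6l-KO, and 0 falls and 4 rises in Myc-KO. The 7 with E-box letters had 3 falls and 2 rises in Taf5l-KO, 4 falls and 1 rise in Taf6l-KO, and 0 falls and 1 rise in Myc-KO. Atp5sl, which encodes no subunit, is in both the YY1 and the E-box set and rose in every knockout. It is the 1 rise of both sets in Taf6l-KO and of the E-box set in Myc-KO.

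Between genes, levels can be compared only per length, for which the authors' FPKM were used as means over the 5 groups. Among nuclear subunits the highest was Atp5b, the catalytic beta subunit of ATP synthase, at 17941 FPKM, and the lowest of its complex was Atp5l, a small membrane subunit, at 259 FPKM. Sdha, the flavoprotein of succinate dehydrogenase, reached 4904 FPKM, whereas its membrane anchor Sdhd had 100 FPKM. Complex I ranged from Ndufb8, at 3561 FPKM, to Ndufa11, at 22.2 FPKM, and complex III from Uqcr10, at 1459 FPKM, to Uqcrfs1, its Rieske iron-sulfur protein, at 87.0 FPKM. Complex IV ranged from Cox7b, at 2107 FPKM, to the testis isoform Cox6b2, at 20.1 FPKM. Of the mitochondrial genes, mt-Atp8 was highest, at 10491 FPKM, and mt-Nd5 lowest, at 431 FPKM. Subunits of a complex thus differed widely in the authors' FPKM, but counts and annotated lengths did not bear out every gap. Sdha had a mean of 5475 counts and a longest annotated transcript of 2900 bases, and Sdhd 2134 counts and 1231 bases. The effective length of very short transcripts is uncertain, and so are their FPKM. Given Sdha and Sdhd, the FPKM of longer transcripts are also uncertain as levels.

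**Figure D1:**
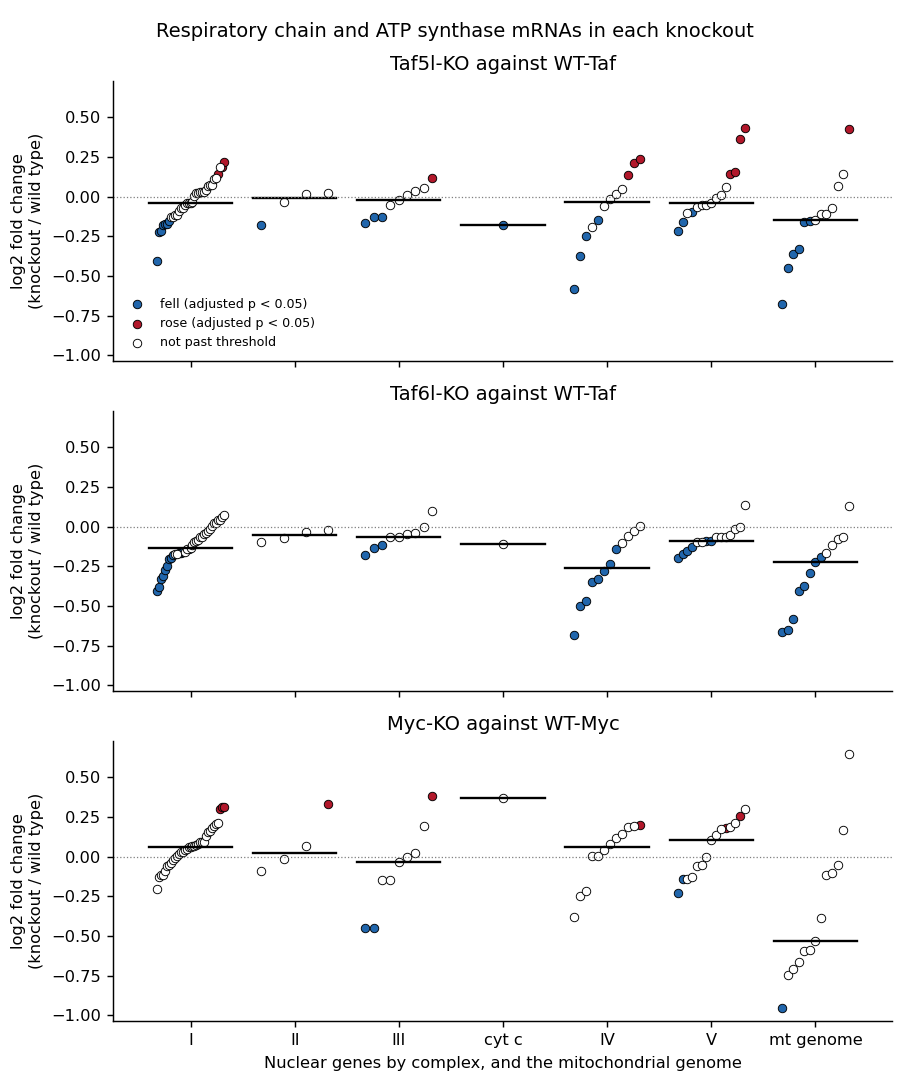
Log2 fold change of each member against its own wild type, by complex for the nuclear subunits and in a last column for the mitochondrial genome; each point is a gene, bars are medians, blue points fell and red points rose (adjusted p under 0.05). In Taf6l-KO no subunit rose and the complex IV median lay at -0.26, whereas falls and rises stood side by side in Taf5l-KO.

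In Taf5l-KO the nuclear subunits changed in both directions by small amounts. Of 76, 19 fell and 11 rose, with a median log2 fold change of -0.03, against a median of 0.00054 over all genes tested. Among all 15743 genes tested in the Taf experiment, 15.9% fell and 17.4% rose, 33.2% in all. The mitochondrial genes were lower more often, with 6 falls and 1 rise among 13 and a median of -0.15. Complex I had 7 falls and 3 rises in 35 genes, complex II 1 fall and 0 rises in 4, complex III 3 falls and 1 rise in 9, complex IV 4 falls and 3 rises in 12, and complex V 3 falls and 4 rises in 15. The 3 Taf5l-KO libraries lay wholly below the 3 WT-Taf libraries in 22 of the 76 nuclear subunits and wholly above them in 10, against 22% and 22.7% of all genes tested.

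In Taf6l-KO the nuclear subunits past the threshold were all lower under TMM scaling. Of 76, 30 fell and 0 rose (edgeR), with a median of -0.09, against 0.02 over all genes. At an unadjusted p under 0.05, 0 of the 76 were higher, and DESeq2 called 0 rises among all 91 members. Of all genes tested, 18.2% fell and 19.1% rose, 37.2% in all. The 13 mitochondrial genes had 8 falls and 0 rises, with a median of -0.23. Complex IV, cytochrome c oxidase, had 8 falls among 12 nuclear genes and a median of -0.26. Complex I had 13 falls in 35, complex III 3 in 9, complex V 6 in 15 and complex II 0 in 4. The 3 Taf6l-KO libraries lay wholly below WT-Taf in 43 of the 76 nuclear subunits and wholly above in 0, against 23.5% and 25.4% of all genes. Scaled by library totals, 15 nuclear subunits fell and 2 rose in Taf6l-KO (19.7% and 2.63%), with a median of -0.03. Under that scaling 11.7% of all genes tested fell and 25.9% rose, with a median of 0.09.

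Both Taf knockouts share the WT-Taf libraries, so their effects are not independent of each other, and both were set against each other directly below. In these bulk samples, fewer cells of a type and less RNA per cell cannot be told apart. Within the nuclear share of the libraries the changes were small. The 76 nuclear subunits took 0.908%, 0.906% and 0.892% of counts in Taf5l-KO and 0.896%, 0.922% and 0.926% in Taf6l-KO, against 0.954%, 0.937% and 0.932% in WT-Taf. Every knockout library was below every wild-type library in this share, by a small margin. The 13 mitochondrial mRNAs took 1.05% ± 0.04 of counts in Taf5l-KO and 1.07% ± 0.05 in Taf6l-KO, against 1.33% ± 0.05 in WT-Taf (SD, n = 3 each), again without overlap. Counts of mitochondrial over nuclear subunit mRNA averaged 1.16 in Taf5l-KO and 1.18 in Taf6l-KO, against 1.42 in WT-Taf. With 3 libraries a group, the exact permutation test cannot give a two-sided p below 0.1, and none is given for these shares.

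**Figure D2:**
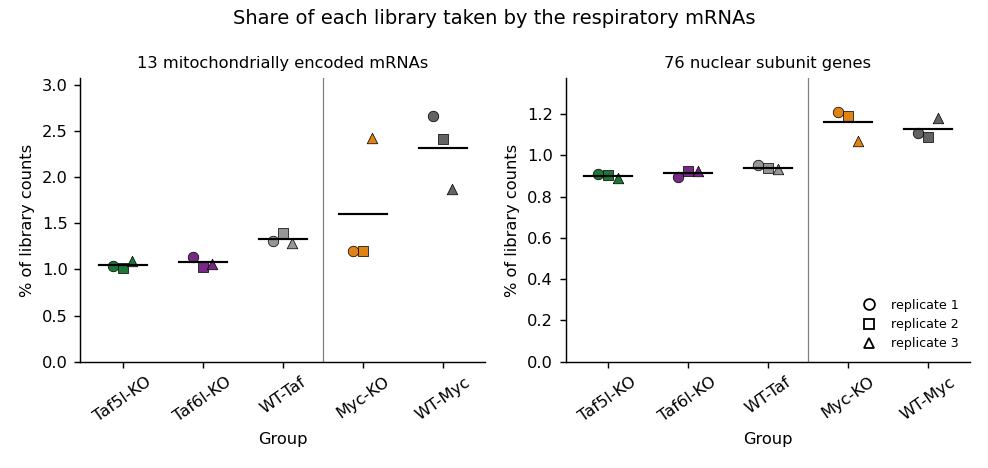
Share of all counts of a library taken by the 13 mitochondrially encoded mRNAs (left) and by the 76 nuclear subunit genes (right); each point is a library, shapes give the replicate number and bars the mean of the group. Both Taf knockouts lie below WT-Taf on both sides, and Myc-KO replicate 3, at 2.42%, lies far above the other Myc-KO libraries, at 1.2%, on the left.

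The mitochondrial genome is transcribed from both strands as long precursors that are cut into mRNAs, so its genes share promoters and differ by processing and stability. mt-Co1, the catalytic subunit of cytochrome c oxidase, had the largest change of any member in Taf5l-KO. It had 2704, 2688 and 2640 CPM in Taf5l-KO and 2841, 2651 and 2704 CPM in Taf6l-KO, against 4278, 4350 and 4234 CPM in WT-Taf. Its log2 fold change was -0.68 ± 0.03 (SE; adjusted p = 2.47e-09) in Taf5l-KO and -0.65 ± 0.03 (adjusted p = 2.74e-09) in Taf6l-KO. The groups were far apart relative to the spread within them. mt-Co1 made up 24.8% of the 13 mRNAs' counts in Taf5l-KO and 26.4% in Taf6l-KO, against 31.9% in WT-Taf, so the genes of the mitochondrial genome did not change by equal amounts.

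The other core subunits of cytochrome c oxidase moved less. mt-Co3 had 1110, 1116 and 1116 CPM in Taf5l-KO and 1200, 1136 and 1177 CPM in Taf6l-KO, against 1524, 1545 and 1486 CPM in WT-Taf, and fell by 0.45 and 0.37 on the log2 scale (adjusted p = 9.17e-08 and 3.42e-07). No knockout library overlapped the wild type. mt-Co2 had a log2 fold change of -0.11 ± 0.05 in Taf5l-KO, not past the threshold (adjusted p = 0.111), and fell in Taf6l-KO (-0.19 ± 0.05, adjusted p = 0.00784). mt-Co1, mt-Co2 and mt-Co3 are among 7 mitochondrial genes that share over 50% of their 31-base words with nuclear copies of mitochondrial DNA. No nuclear member does, so counts of these 7 genes could be split by the authors' counting. For mt-Co1, with a mean of 96880 counts, the copy sharing most, Gm13340, had a mean of 52.07 counts. The extreme case was mt-Nd4l, whose counts were the same as those of its nuclear copy Gm10222 in 15 of 15 libraries.

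Of the 7 mitochondrial subunits of complex I, mt-Nd1 fell most. It had 1000, 1048 and 1035 CPM in Taf5l-KO and 935, 784 and 788 CPM in Taf6l-KO, against 1288, 1412 and 1265 CPM in WT-Taf. Its log2 fold change was -0.36 ± 0.06 in Taf5l-KO and -0.66 ± 0.06 in Taf6l-KO (adjusted p = 0.000302 and 9.14e-07), and the direct comparison of Taf6l-KO with Taf5l-KO gave -0.30 ± 0.06 (adjusted p = 0.00304). mt-Nd3 had 139, 180 and 196 CPM in Taf5l-KO and 155, 138 and 139 CPM in Taf6l-KO, against 208, 246 and 193 CPM in WT-Taf. Its fall in Taf6l-KO (-0.58 ± 0.10) did not rest on a single library, and its fall in Taf5l-KO (-0.33 ± 0.10), where 1 library overlapped the wild type, was lost when Taf5l-KO replicate 1, or WT-Taf replicate 2, was left out (-0.225 to -0.202). mt-Nd4l fell in Taf6l-KO (-0.41 ± 0.06), as did mt-Nd4 (-0.29 ± 0.07) and mt-Nd5 (-0.23 ± 0.05). In Taf5l-KO these 3 stood at -0.16, -0.15 and -0.11, of which the first passed the threshold (adjusted p = 0.0425) but did not without any one of the 6 Taf5l-KO and WT-Taf libraries (-0.184 to -0.116).

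mt-Nd6, the only mRNA of the light strand, was the mitochondrial mRNA past the threshold in the upward direction in Taf5l-KO. It had 61.0, 67.1 and 91.4 CPM in Taf5l-KO and 67.0, 58.3 and 53.9 CPM in Taf6l-KO, against 50.1, 62.5 and 50.2 CPM in WT-Taf. It rose in Taf5l-KO (0.43 ± 0.13, adjusted p = 0.0193), and the highest library, Taf5l-KO replicate 3, set much of the size, since the call was lost without it and without WT-Taf replicate 1 or 3 (0.232 to 0.378). In Taf6l-KO it stood at 0.13 ± 0.13 (adjusted p = 0.464). Counts of mt-Nd6 over those of its heavy-strand neighbour mt-Nd5 averaged 0.137 in Taf5l-KO and 0.121 in Taf6l-KO, against 0.0941 in WT-Taf, and no knockout library overlapped the wild type in this ratio. mt-Atp6, the proton channel subunit of ATP synthase, stood at -0.15 ± 0.05 in Taf5l-KO (adjusted p = 0.0407), a call lost without any one of 4 libraries (Taf5l-KO replicates 1 and 2, WT-Taf replicates 1 and 2; -0.165 to -0.11). mt-Nd2, mt-Cytb, the cytochrome b of complex III, and mt-Atp8 passed the threshold in no knockout with all libraries, with log2 fold changes from -0.16 to 0.14 in the Taf knockouts.

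**Figure D3:**
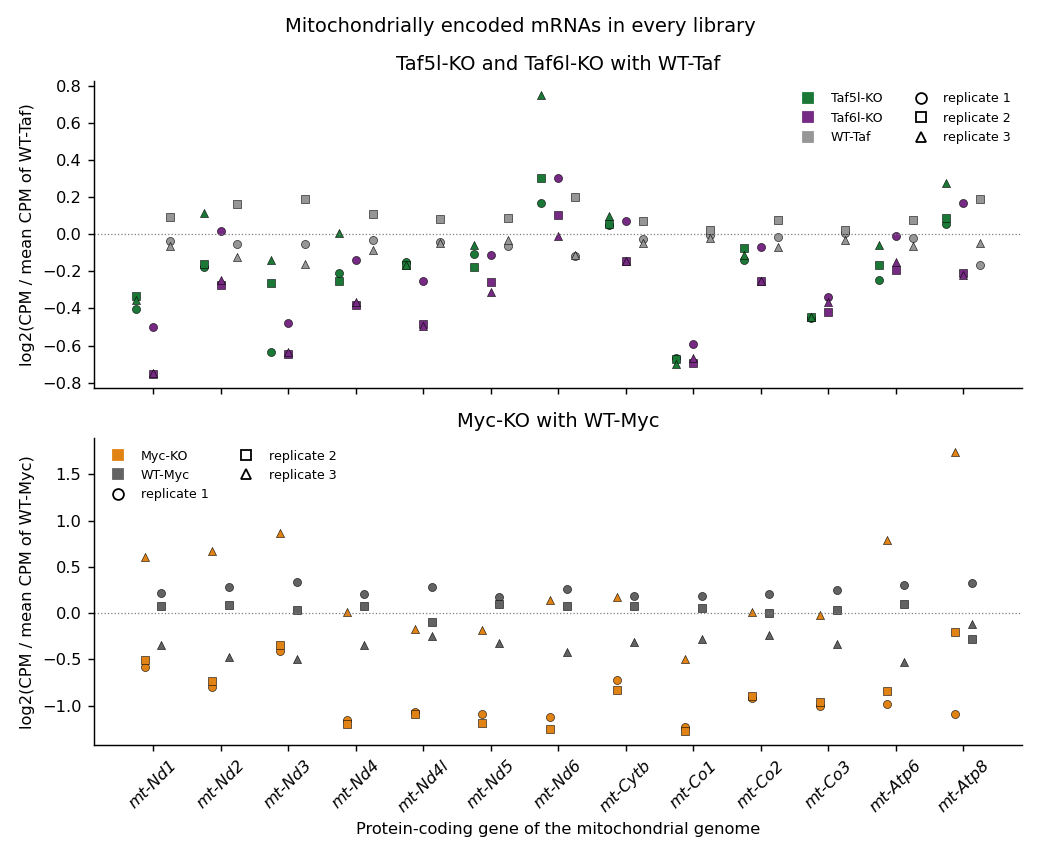
Log2 ratio of each library's CPM to the mean CPM of its wild type, for the 13 mitochondrial protein genes; colours give the group and shapes the replicate number. mt-Co1 and mt-Co3 lie below WT-Taf in all 6 Taf knockout libraries, and Myc-KO replicate 3 lies above the other Myc-KO libraries for every gene.

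Complex I, which takes electrons from NADH, had 7 core and 28 accessory nuclear subunits. Of the core subunits, which carry the flavin and iron-sulfur clusters, 3 fell in Taf5l-KO, among them Ndufv1 (-0.22) and Ndufv2 (-0.18), and 5 in Taf6l-KO, among them Ndufv1 (-0.20), Ndufv2 (-0.16) and Ndufs3 (-0.18), and 0 rose in either. Ndufv1, which binds NADH, had 97.8, 106 and 105 CPM in Taf5l-KO and 100, 107 and 107 CPM in Taf6l-KO, against 119, 119 and 121 CPM in WT-Taf, with no overlap. Among the accessory subunits 4 fell and 3 rose in Taf5l-KO, and 8 fell and 0 rose in Taf6l-KO. Ndufa7 had 63.6, 61.8 and 55.1 CPM in Taf5l-KO and 55.3, 54.1 and 52.6 CPM in Taf6l-KO, against 73.5, 69.1 and 67.6 CPM in WT-Taf. It fell by 0.22 in Taf5l-KO and by 0.38 in Taf6l-KO on the log2 scale, and its promoter above holds the YY1 and E-box letters.

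Ndufb4 had the largest fall of a nuclear complex I gene in both Taf knockouts, from a low level. It had 9.32, 10.8 and 9.55 CPM in Taf5l-KO and 10.7, 9.10 and 9.83 CPM in Taf6l-KO, against 13.8, 12.3 and 13.3 CPM in WT-Taf (-0.41 ± 0.09 and -0.40 ± 0.09, adjusted p = 0.00273 and 0.00221). The groups did not overlap. A near copy, Ndufb4c, shares 19.1% of its 31-base words and had a mean of 681 counts, against 188 for Ndufb4, and with both summed the changes were -0.21 and -0.36. The membrane arm subunits Ndufb9 (-0.31), Ndufb10 (-0.33), Ndufb11 (-0.27) and Ndufb5 (-0.20) also fell in Taf6l-KO. Ndufa13 (0.22), also known as GRIM-19, Ndufb7 (0.14) and Ndufv3 (0.19) rose in Taf5l-KO, where Ndufv3 was not past the threshold without Taf5l-KO replicate 2 (0.157). In Taf6l-KO these 3 genes were not past the threshold. Of the 35 genes, 15 were not past the threshold in any of the 3 knockouts.

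Succinate dehydrogenase (complex II), the only complex with no mitochondrially encoded subunit, hardly moved in the Taf knockouts. Sdhd, a membrane anchor, had 97.8, 98.9 and 94.1 CPM in Taf5l-KO and 106, 107 and 108 CPM in Taf6l-KO, against 111, 109 and 109 CPM in WT-Taf. It fell in Taf5l-KO (-0.18 ± 0.03, adjusted p = 0.000688). Sdha, Sdhb and Sdhc did not pass the threshold in either. In complex III, the core protein Uqcrc2 fell in both knockouts (-0.13 and -0.12), the Rieske protein Uqcrfs1 fell in Taf5l-KO (-0.13) and the small subunit Uqcr11 in Taf6l-KO (-0.18). Uqcrq, the ubiquinone-binding subunit, was at -0.16 in Taf5l-KO and -0.14 in Taf6l-KO, both past the threshold, but not in Taf5l-KO without WT-Taf replicate 1 (-0.13) nor in Taf6l-KO without any one of its own 3 libraries or WT-Taf replicate 1 or 2 (-0.139 to -0.102). Cycs, the electron carrier that also triggers apoptosis, had 43.3, 48.0 and 45.8 CPM in Taf5l-KO and 49.7, 46.2 and 48.0 CPM in Taf6l-KO, against 48.6, 52.6 and 54.3 CPM in WT-Taf. Its fall in Taf5l-KO (-0.18 ± 0.05) was lost when Taf5l-KO replicate 1, or either of WT-Taf replicates 2 and 3, was left out (-0.165 to -0.142), and it shares sequence with 3 processed copies in the table.

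Cytochrome c oxidase (complex IV) had the most calls for its size between the Taf knockouts with TMM scaling, 6 of 12 nuclear genes. Cox5a, a subunit that joins early in assembly, had 161, 172 and 161 CPM in Taf5l-KO and 144, 142 and 144 CPM in Taf6l-KO, against 185, 186 and 176 CPM in WT-Taf (-0.15 ± 0.04 and -0.35 ± 0.04). The 3 groups formed 3 separate levels. Cox6c had 80.2, 85.8 and 78.5 CPM in Taf5l-KO and 73.7, 65.2 and 66.4 CPM in Taf6l-KO, against 100, 95.8 and 94.6 CPM in WT-Taf (-0.25 ± 0.05 and -0.50 ± 0.05). Cox7b had 99.1, 101 and 85.7 CPM in Taf5l-KO and 90.0, 88.9 and 88.6 CPM in Taf6l-KO, against 129, 122 and 118 CPM in WT-Taf (-0.37 ± 0.05 and -0.47 ± 0.05). On the authors' FPKM, however, Cox7b was at 0.107 in Taf5l-KO, the opposite direction. Cox6b2, the testis form of the subunit that bridges the dimer, was low throughout, with 2.79, 4.13 and 2.92 CPM in Taf5l-KO and 2.57, 3.48 and 3.26 CPM in Taf6l-KO, against 5.01, 5.07 and 4.74 CPM in WT-Taf (-0.59 ± 0.16 and -0.68 ± 0.16).

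Cox8a and Cox6b1 passed the threshold in Taf6l-KO alone. Cox8a, the smallest subunit, had 134, 140 and 105 CPM in Taf5l-KO and 118, 116 and 111 CPM in Taf6l-KO, against 144, 143 and 146 CPM in WT-Taf. Its log2 fold change was -0.33 ± 0.08 in Taf6l-KO (adjusted p = 0.00359), and in Taf5l-KO, where replicate 3 was well below the others, it was -0.19 ± 0.08 (adjusted p = 0.0688). The direct comparison of Taf6l-KO with Taf5l-KO gave -0.14 ± 0.08 for Cox8a (adjusted p = 0.241), so no difference between them was shown. Cox6b1, the common form of the bridging subunit, fell in Taf6l-KO (-0.28 ± 0.05) and was lower there than in Taf5l-KO (-0.22 ± 0.05, adjusted p = 0.00579). Cox7c had 97.4, 109 and 94.7 CPM in Taf5l-KO and 83.7, 88.1 and 84.3 CPM in Taf6l-KO, against 92.9, 84.3 and 77.4 CPM in WT-Taf. It rose in Taf5l-KO (0.24 ± 0.06), but summed with its copies Gm10012 and Gm12338 it was at 0.09, not past the threshold, and in Taf6l-KO at -0.13, past it. Cox4i1, Cox7a2 and Ndufa4, a subunit of complex IV despite its name, were past the threshold in no knockout.

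**Figure D4:**
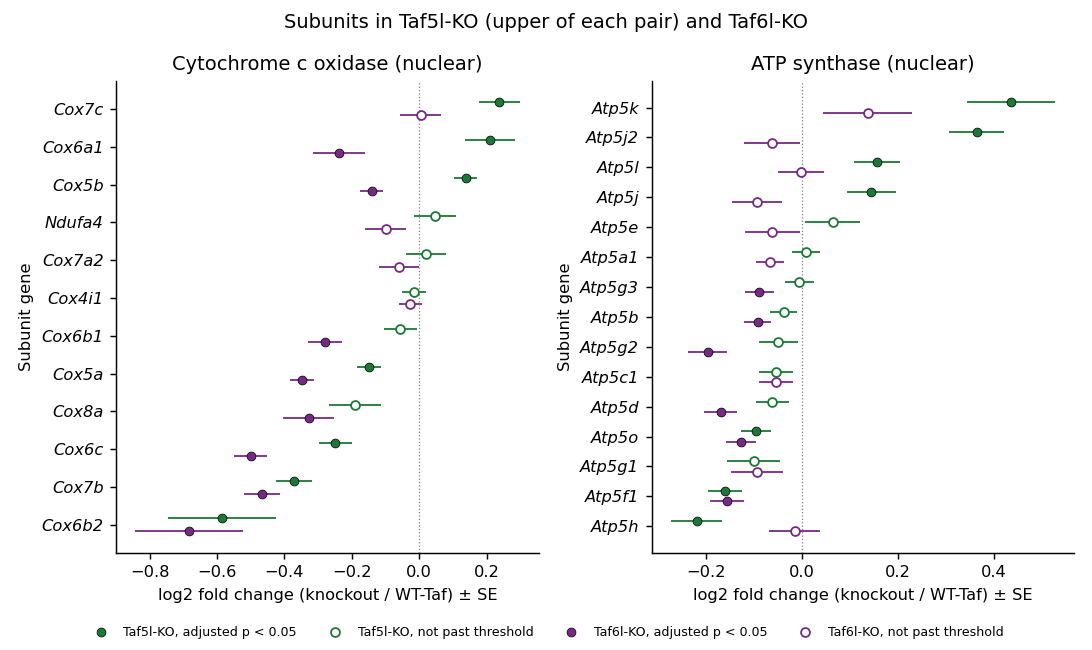
Log2 fold change ± SE against WT-Taf for the nuclear subunits of cytochrome c oxidase (left) and ATP synthase (right); Taf5l-KO is the upper point of each pair and Taf6l-KO the lower, filled where the adjusted p was under 0.05. Cox5b and Cox6a1 lie on opposite sides of 0, and the filled Taf5l-KO points of Atp5k, Atp5j2, Atp5l and Atp5j lie above 0.

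ATP synthase (complex V) had 3 falls and 4 rises among 15 genes in Taf5l-KO. Of the 5 subunits of the catalytic F1 head, 0 fell and 0 rose, and likewise of the 3 genes of the rotor ring subunit c. Of the 4 peripheral stalk genes 3 fell, namely Atp5h (-0.22), Atp5f1 (-0.16) and Atp5o (-0.10), and Atp5j rose (0.14). All 3 small membrane subunits, Atp5k, Atp5j2 and Atp5l, rose. Atp5k, the e subunit at the dimer interface, had 28.3, 34.9 and 29.9 CPM in Taf5l-KO and 29.1, 23.1 and 23.4 CPM in Taf6l-KO, against 23.9, 22.9 and 22.1 CPM in WT-Taf (0.44 ± 0.09 in Taf5l-KO, adjusted p = 0.00218). Atp5j2, the f subunit, had 70.0, 72.4 and 64.8 CPM in Taf5l-KO and 55.9, 50.0 and 48.1 CPM in Taf6l-KO, against 56.0, 52.6 and 52.3 CPM in WT-Taf (0.36 ± 0.06 in Taf5l-KO, adjusted p = 0.000217). All Taf5l-KO libraries were above all WT-Taf libraries for both genes. Atp5l, the g subunit, was at 0.16 ± 0.05, past the threshold but not when Taf5l-KO replicate 2, or either of WT-Taf replicates 2 and 3, was left out (0.122 to 0.156), and summed with its copy Gm10221 it was at 0.04, not past it.

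In Taf6l-KO the changes in ATP synthase were smaller and 1 way. Atp5f1 (-0.16) and Atp5o (-0.13) of the stalk fell, as did Atp5g2 (-0.20) and Atp5g3 (-0.09) of the rotor ring and Atp5b (-0.09) and Atp5d (-0.17) of the head. The calls of Atp5g3 and Atp5b, both small, were lost without any one of 5 and of 3 libraries (-0.0928 to -0.0778 and -0.0936 to -0.0765). Atp5b had 1563, 1623 and 1604 CPM in Taf6l-KO, against 1711, 1693 and 1701 CPM in WT-Taf, a small shift with no overlap. Atp5g1, which encodes the same mature c subunit as Atp5g2 and Atp5g3, was past the threshold in no knockout.

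The direct comparison of Taf6l-KO with Taf5l-KO asked where the Taf knockouts differ. Of the 91 members, 23 were lower in Taf6l-KO and 2 were higher, against 10.1% and 8.55% of all genes tested, 18.7% in all. Of the 76 nuclear subunits 21 were lower and 2 higher, with a median of -0.09, and the 3 Taf6l-KO libraries lay wholly below the 3 Taf5l-KO libraries in 30 and wholly above in 4 (17.5% and 17.2% of all genes). This split depended on scaling. With library totals, 7 nuclear subunits were lower and 7 higher, with a median of 0.000121, and of all genes 618 were lower and 3045 higher, in place of 1592 and 1346. With TMM scaling, all 12 nuclear genes of complex IV were below 0, 6 of them past the threshold. Of these calls, those of Cox6b1 and Cox7c were lost with library totals. Cox6a1, the common form of a subunit near the dimer interface, had 74.9, 71.6 and 63.1 CPM in Taf6l-KO, against 97.7, 106 and 82.7 CPM in Taf5l-KO (-0.45 ± 0.07, adjusted p = 0.000885). Cox5b, a zinc-binding subunit, had 94.4, 94.6 and 96.9 CPM in Taf6l-KO, against 116, 120 and 111 CPM in Taf5l-KO (-0.28 ± 0.03, adjusted p = 0.0001). Neither gene overlapped between the knockouts.

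WT-Taf lay between them, with 82.8, 81.2 and 83.2 CPM for Cox6a1 and 104, 107 and 104 CPM for Cox5b. Cox5b rose in Taf5l-KO (0.14 ± 0.03, adjusted p = 0.00653) and fell in Taf6l-KO (-0.14 ± 0.03, adjusted p = 0.00526). Cox6a1 was at 0.21 ± 0.07 in Taf5l-KO and -0.24 ± 0.08 in Taf6l-KO, past the threshold in both (adjusted p = 0.0427 and 0.0232), but the first call was lost without any one of 6 libraries (0.129 to 0.217) and the second without Taf6l-KO replicate 3 or WT-Taf replicate 1 or 3 (-0.236 to -0.168). With library totals the falls of both genes in Taf6l-KO were lost. In the fit of all 15 libraries every call of Cox5b and Cox6a1 against WT-Taf was lost. Atp5j2 (-0.43), Ndufa3 (-0.36), Atp5k (-0.30) and Cox6c (-0.25) were also lower in Taf6l-KO than in Taf5l-KO, though Atp5k was not past the threshold without Taf5l-KO replicate 2 or Taf6l-KO replicate 2 or 3 (-0.245 to -0.204). The 2 higher genes were Sdhd (0.15 ± 0.03) and Atp5h (0.20 ± 0.05), the second, on chromosome 11, not without Taf5l-KO replicate 3 or Taf6l-KO replicate 2 (0.143 to 0.186).

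Many respiratory subunits have very short mRNAs, and the difference between the Taf knockouts is set beside length here. Across the 76 nuclear subunits, the Spearman correlation of the Taf6l-KO against Taf5l-KO log2 fold change with the longest annotated transcript was 0.459, as a description across genes that share the same libraries, and 0.00598 across 13173 genes with a length. The 15 subunits under 600 bases had a median of -0.16 and the 61 longer ones -0.06. All 126 tested genes under 600 bases had a median of -0.18, and the 13047 longer genes 0.01. As a group, short transcripts of all kinds were thus lower in Taf6l-KO than in Taf5l-KO. Against WT-Taf, all genes under 600 bases had a median of -0.17 in Taf6l-KO (0.01 for longer genes) and of -0.0038 in Taf5l-KO (-0.0070 for longer genes). The short subunits had a median of -0.14 in Taf6l-KO (-0.09 for the longer ones) and of 0.07 in Taf5l-KO (-0.04 for the longer ones). The correlation with length over the 76 subunits was 0.0757 in Taf6l-KO and -0.249 in Taf5l-KO. Whether RNA length or recovery contributed was not tested.

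**Figure D5:**
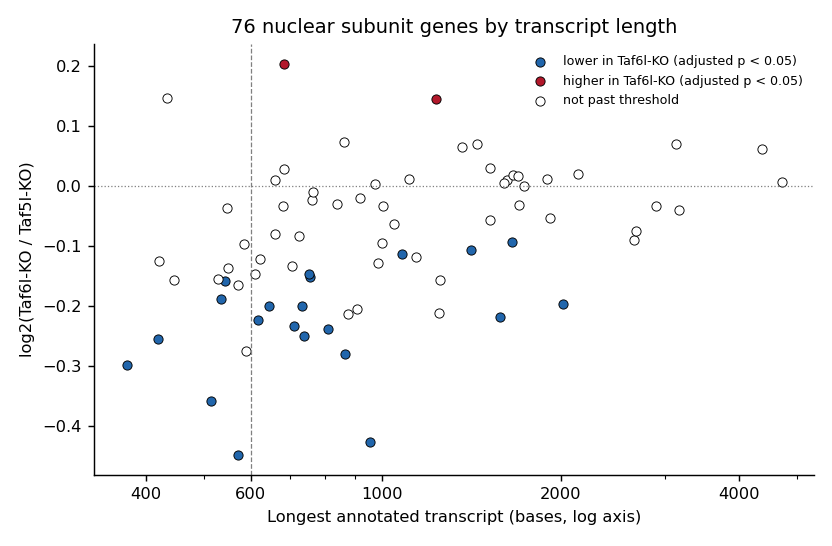
Log2 fold change of Taf6l-KO against Taf5l-KO for the 76 nuclear subunit genes, by the length of the longest annotated transcript (log axis); the dashed line marks 600 bases, and coloured points were lower or higher in Taf6l-KO at an adjusted p under 0.05. The 15 genes left of the line had a median of -0.16, and the 2 genes higher in Taf6l-KO lie right of it.

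In Myc-KO the counts of both nuclear and mitochondrial genes past the threshold depended on whether Myc-KO replicate 3 was included. Over all 3 libraries, 4 nuclear subunits fell and 8 rose of 76, with a median of 0.05, and of the 13 mitochondrial genes 1 fell and 0 rose, with a median of -0.53. Of all 14563 genes tested, 19.5% fell and 15.2% rose, 34.8% in all. Without Myc-KO replicate 3, 2 nuclear subunits fell and 25 rose (median 0.12), and 11 mitochondrial genes fell and 0 rose (median -0.89), against 20.6% and 19.4% of all genes, 40% in all. Counts of mitochondrial over nuclear subunit mRNA were 0.990, 1.00 and 2.25 in the Myc-KO libraries, against 2.39, 2.21 and 1.59 in WT-Myc. Myc-KO replicate 3 thus lay within the range of WT-Myc, and the other Myc-KO libraries below it. That library was set apart by these same mitochondrial transcripts, so leaving it out favours mitochondrial falls, and the counts without it are a description only. WT-Myc replicate 3, which had the lowest ratio of its group, was kept. With any single library left out, the mitochondrial median lay between -0.89 and -0.35. With library totals 3 members fell and 15 rose (3.3% and 16.5%), against 16.8% and 18.5% of all genes. With scaling on nuclear rows alone 5 members fell and 14 rose (5.49% and 15.4%), against 18.2% and 16.9% of all genes. These counts stand in place of 6 and 9 members.

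mt-Co1 was the mitochondrial gene past the threshold with all libraries. It had 3795, 3690 and 6344 CPM in Myc-KO, against 10189, 9266 and 7345 CPM in WT-Myc (-0.95 ± 0.22, adjusted p = 0.0116, and -1.23 ± 0.11 without Myc-KO replicate 3). Even the highest Myc-KO library was below the lowest WT-Myc library. mt-Nd5 had 534, 499 and 1004 CPM in Myc-KO, against 1281, 1222 and 913 CPM in WT-Myc, where replicate 3 of each group overlapped. mt-Nd4, mt-Nd6 and mt-Nd5 were at -1.15, -1.16 and -1.12 without Myc-KO replicate 3, and at -0.66, -0.60 and -0.75 with it, not past the threshold. mt-Nd3 and mt-Atp8 were not past the threshold with or without that library. The ratio of mt-Nd6 to mt-Nd5 counts averaged 0.296 in Myc-KO and 0.276 in WT-Myc. Of the 2 mitochondrial ribosomal RNAs, of which these libraries hold little, mt-Rnr2 rose in Myc-KO (1.06 with all libraries and 0.70 without replicate 3). mt-Rnr1 was at 0.63 with all libraries (adjusted p = 0.0720) and at 0.33 without replicate 3 (adjusted p = 0.0502), not past the threshold in either. The RNA was depleted of ribosomal RNA before sequencing, and the part of that depletion in these values was not tested.

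The nuclear subunits that rose in Myc-KO belong to several complexes. Ndufs4, an accessory subunit whose loss causes complex I deficiency, had 66.8, 65.6 and 68.6 CPM in Myc-KO, against 55.7, 51.9 and 54.2 CPM in WT-Myc (0.31 ± 0.05, adjusted p = 0.00313). Sdhb, the iron-sulfur protein of complex II, had 119, 121 and 109 CPM in Myc-KO, against 88.6, 90.0 and 98.4 CPM in WT-Myc (0.33 ± 0.07, adjusted p = 0.00652). Neither gene overlapped between the groups. Ndufs6 (0.31), Atp5c1 (0.26), the gamma subunit that turns within the F1 head, and Uqcrb (0.38) also rose. Uqcrb was lost without WT-Myc replicate 2 or 3 (0.343 to 0.352). Ndufa1 (0.30), Cox5a (0.20) and Atp5h (0.18) were past the threshold, but each not without any one of 4 libraries (0.218 to 0.299, 0.159 to 0.219 and 0.142 to 0.182).

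Uqcr10 and Uqcrq, small subunits of complex III, fell in Myc-KO. Uqcr10 had 99.4, 95.8 and 77.9 CPM in Myc-KO, against 124, 114 and 135 CPM in WT-Myc (-0.45 ± 0.10, adjusted p = 0.0122). Uqcrq had 66.9, 68.7 and 51.3 CPM in Myc-KO, against 81.5, 80.4 and 92.5 CPM in WT-Myc (-0.45 ± 0.12, adjusted p = 0.0201), and was lost without WT-Myc replicate 3 (-0.38). Both were without overlap, and both remained past the threshold without Myc-KO replicate 3, at -0.33 and -0.30. Both genes lie on chromosome 11. Atp5a1 (-0.14) and Atp5g2 (-0.23) were also past the threshold, but not without any one of 6 and of 4 libraries (-0.151 to -0.0954 and -0.217 to -0.164). Off chromosomes X, 11 and 14, 2 of 69 nuclear subunits fell and 6 rose in Myc-KO, 16 fell and 11 rose in Taf5l-KO, and 27 fell and 0 rose in Taf6l-KO. The shares of all genes off these chromosomes are not given, and those over all genes include them. These counts are therefore a description only.

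The difference between each Taf effect and the Myc effect was tested in 1 fit of all 15 libraries. For Taf5l, 19 of the 91 members had an effect below that of Myc and 1, Ndufa13 (0.38), above it, against 16.4% and 15.7% of 16286 genes, 32.1% in all. For Taf6l, 28 were below and 1, Uqcr10 (0.51), above, against 17.7% and 17.1%, 34.8% in all. All of these calls were nuclear subunits. Without Myc-KO replicate 3, 30 members were below and 11 above for Taf5l, and 46 below and 11 above for Taf6l. The shares over all genes without that library are not given for these differences. That library was set apart by its mitochondrial transcripts, so leaving it out favours mitochondrial genes with a Taf effect above that of Myc. The counts without it are a description only. The 2 comparisons share the Myc libraries and WT-Taf. No mitochondrial gene passed the threshold in either with all libraries, the lowest adjusted p being 0.0734 for mt-Nd6 with Taf5l and 0.116 for mt-Nd3 with Taf6l. Cox6c was at -0.48 and -0.73, Ndufa7 at -0.46 and -0.61, Cox5a at -0.39 and -0.59 and Atp5f1 at -0.39 and -0.38 for Taf5l and Taf6l less Myc.

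The 2 members that encode no subunit were past the threshold in every knockout. Cox4nb had 116, 112 and 112 CPM in Taf5l-KO and 112, 120 and 110 CPM in Taf6l-KO, against 129, 133 and 130 CPM in WT-Taf, with -0.21 and -0.20, and it was at -0.22 in Myc-KO. Atp5sl, the assembly factor, was at 0.29 in Taf5l-KO, 0.15 in Taf6l-KO and 0.29 in Myc-KO. In Myc-KO neither gene was past the threshold without any one of 4 libraries (-0.246 to -0.194 and 0.254 to 0.283), nor was Atp5sl in Taf6l-KO without any one of 3 (0.106 to 0.139).

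Genes that build or serve the respiratory chain were taken from lists of symbols, of which some entries had no row under the listed symbol and were not analysed here. Rows were found for 10 of 17 entries for assembly of complex I, 2 of 4 for complex II, 3 of 6 for complex III, 12 of 22 for complex IV and 3 of 3 for ATP synthase. They were also found for 4 of 5 supercomplex factors, 9 of 16 genes of mitochondrial DNA, 15 of 19 of mitochondrial RNA and 8 of 9 carriers. Every entry of the remaining lists had a row. For the lists that follow, the shares over all genes tested were 15.9% falls and 17.4% rises in Taf5l-KO. These shares were 18.2% and 19.1% in Taf6l-KO and 19.5% and 15.2% in Myc-KO, and the counts of short lists were not tested. Of 10 tested assembly factors of complex I, 5 fell and 0 rose in Taf5l-KO, 2 and 0 in Taf6l-KO, and 2 fell and 1 rose in Myc-KO. Nubpl, which delivers iron-sulfur clusters, fell in both Taf knockouts (-0.46 and -0.36), and Acad9 fell in all 3 knockouts (-0.15, -0.20 and -0.24). Of 12 assembly factors of complex IV, 2 fell and 0 rose in Taf5l-KO, 1 fell and 3 rose in Taf6l-KO, and 1 fell and 2 rose in Myc-KO. Sco1, a copper chaperone of the oxidase, fell in Taf5l-KO (-0.21), rose in Taf6l-KO (0.16) and fell in Myc-KO (-0.33). Cox10 (0.24), which makes heme O, and Cox11 (0.21) rose in Taf6l-KO. Sdhaf2 of 2 complex II factors fell in both Taf knockouts (-0.28 and -0.21), and 0 passed in Myc-KO. Of 3 complex III factors only Ttc19 in Taf6l-KO passed (0.49), and of 3 ATP synthase factors Tmem70 (0.32) and Atpaf2 (0.26) rose in Taf6l-KO and 0 passed elsewhere. Of these 6 rises in Taf6l-KO, those of Sco1, Cox10, Cox11, Ttc19 and Atpaf2 are of genes on chromosome 11, where 39.1% of 1300 tested genes rose and 6.46% fell in Taf6l-KO, with a median of 0.16. On the same chromosome 11.8% rose and 21.0% fell in Taf5l-KO, and 16.4% rose and 27.2% fell in Myc-KO. The part of the chromosome in these changes was not tested.

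The mitochondrial genome is maintained and expressed by factors encoded in the nucleus. Of 9 genes of mitochondrial DNA replication and transcription, 4 fell and 1 rose in Taf5l-KO, 3 fell and 0 rose in Taf6l-KO, and 1 fell and 1 rose in Myc-KO. Polrmt, the mitochondrial RNA polymerase, was at -0.13 in Taf5l-KO and -0.12 in Taf6l-KO. Of 15 genes of mitochondrial RNA processing and stability, 4 fell and 2 rose in Taf5l-KO, 3 fell and 2 rose in Taf6l-KO, and 3 fell and 2 rose in Myc-KO, counts of so few genes that nothing is read from them against the shares of all genes. Both rises in Taf6l-KO, Elac2 and Pnpt1, lie on chromosome 11. Lrpprc, which stabilizes mitochondrial mRNAs, fell in all knockouts (-0.69, -0.82 and -0.99), as did Supv3l1, a helicase of mitochondrial RNA decay (-0.32, -0.36 and -0.95). Fastkd5, needed in human cells to mature the precursor of the mt-Co1 mRNA, fell in Taf5l-KO (-0.32) and Taf6l-KO (-0.50), where mt-Co1 was at -0.68 and -0.65. The part of Lrpprc and Fastkd5 in the level of mt-Co1 was not tested.

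The fall of Lrpprc was shared by its neighbours on chromosome 17. Of the 20 tested genes nearest to it, 10 on each side, 16 fell and 1 rose in Taf5l-KO, 17 and 1 in Taf6l-KO and 18 and 0 in Myc-KO, with medians of -0.63, -0.62 and -0.84. Over all of chromosome 17, 147 genes fell and 92 rose of 703 in Taf5l-KO (20.9% and 13.1%, against 15.9% and 17.4% of all genes), 201 fell and 88 rose of 703 in Taf6l-KO (28.6% and 12.5%, against 18.2% and 19.1%), and 152 fell and 102 rose of 669 in Myc-KO (22.7% and 15.2%, against 19.5% and 15.2%). Cox7a2l, a factor that joins complexes III and IV in supercomplexes and not a member here, lies among these neighbours and fell in all 3 (-0.99, -1.01 and -0.76). The member nearest to Lrpprc, Ndufv2, lies 73 tested genes away. Of the 4 tested supercomplex factors, 1 fell and 1 rose in Taf5l-KO, 2 fell and 0 rose in Taf6l-KO and 2 fell and 0 rose in Myc-KO, with Higd1a at 0.40 in Taf5l-KO and Higd2a at -0.26 in Taf6l-KO and -0.30 in Myc-KO.

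Of 12 tested nuclear regulators of respiratory genes, 4 fell and 3 rose in Taf5l-KO, 5 fell and 1 rose in Taf6l-KO, and 4 fell and 2 rose in Myc-KO. Beside this list and the others here, 15.9% of all genes tested fell and 17.4% rose in Taf5l-KO. The shares were 18.2% and 19.1% in Taf6l-KO and 19.5% and 15.2% in Myc-KO, and the counts of these short lists were not tested. Yy1 fell in all knockouts (-0.47, -0.54 and -0.77), as did the coactivator Pprc1 (-0.15, -0.22 and -0.30). Gabpa, the DNA-binding part of the ETS factor named above, rose in all (0.23, 0.11 and 0.30). Esrrb, an orphan nuclear receptor of the stem cell network, fell in Taf5l-KO (-0.27) and Taf6l-KO (-0.33) and rose in Myc-KO (0.16), and Nrf1 itself was past the threshold in none. Of 18 genes of the citric acid cycle and pyruvate dehydrogenase, 7 fell and 3 rose in Taf5l-KO, 8 fell and 2 rose in Taf6l-KO and 4 fell and 2 rose in Myc-KO. Idh3g, a subunit of isocitrate dehydrogenase, fell in Taf5l-KO (-0.49) and Taf6l-KO (-0.63), citrate synthase (Cs) fell in all (-0.25, -0.17 and -0.32), and Suclg2 fell in Myc-KO (-0.92). Of 6 tested carriers of adenine nucleotides, phosphate and protons, 2 fell and 1 rose in Taf5l-KO, 3 fell and 0 rose in Taf6l-KO and 2 fell and 0 rose in Myc-KO, with the ADP/ATP carrier Slc25a4 at -0.43, -0.20 and -0.45.

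Mitochondrial ribosomal proteins, which make the mitochondrially encoded subunits, fell in 24 of 76 genes and rose in 5 in Taf5l-KO, fell in 16 and rose in 9 in Taf6l-KO, and fell in 3 and rose in 11 in Myc-KO (2 and 22 without Myc-KO replicate 3). Of all genes tested, 15.9% fell and 17.4% rose in Taf5l-KO, 18.2% and 19.1% in Taf6l-KO, 19.5% and 15.2% in Myc-KO, and 20.6% and 19.4% in Myc-KO without replicate 3. Mrpl23 had the largest change in the Taf knockouts (-1.95 and -1.66), and in Myc-KO Mrpl52 fell (-0.91) and Mrpl22 rose (0.60). Of the 2 mitochondrial ribosomal RNAs, 0 passed in Taf5l-KO, mt-Rnr2 fell in Taf6l-KO (-0.33) and rose in Myc-KO as given above. The part of ribosomal RNA depletion was not tested here either. Of 20 tested mitochondrial transfer RNAs, 1 fell and 2 rose in Taf5l-KO and 4 fell and 1 rose in Taf6l-KO, and of 4 tested in the Myc experiment 1 fell and 0 rose. Tissue-specific subunit isoforms were low, with 4 of 9 abundant enough to test. Of these, Cox6b2 fell in both Taf knockouts as above, and Ndufa4l2, an isoform induced by low oxygen, fell in Myc-KO (-0.53) and was at 0.76 and 0.59 in Taf5l-KO and Taf6l-KO, not past the threshold.

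Without Myc-KO replicate 3, the counts of the lists in Myc-KO were as follows, beside 20.6% falls and 19.4% rises over all genes tested. Of the assembly factors of complex I 1 fell and 2 rose, of those of complex IV 2 fell and 3 rose, and of those of complexes II and III and ATP synthase 0 fell and 0 rose. Of the supercomplex factors 2 fell and 0 rose, of the genes of mitochondrial DNA 1 fell and 1 rose, and of those of mitochondrial RNA 4 fell and 3 rose. Nuclear regulators had 6 falls and 2 rises, the citric acid cycle list 4 falls and 4 rises and the carriers 2 falls and 2 rises. The list that changed most in its count was that of the mitochondrial ribosomal proteins, given above. Of the 4 tested transfer RNAs 3 fell and 0 rose, and of the 4 tissue isoforms 1 fell and 0 rose.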

How the data were processed

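Total RNA depleted of ribosomal RNA was sequenced in 15 libraries of J1 cells made with a directional kit, per the labels' protocols. The authors deposited estimated counts per gene, which need not be whole. Salmon 0.8.2, DESeq2 1.14.1 and the build mm9 are named in the submitters' processing notes, with no role given. The deposited FPKM, scaled to transcript length and depth, were used for levels between genes and as an alternative. The 30 deposited columns of normalized counts and TPM were not used.

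Estimated counts were rounded, scaled by TMM (factors 0.9508 to 1.052) and tested with edgeR 4.0.16 (R 4.3.3; glmQLFit, glmQLFTest) after filterByExpr, giving log2 fold changes that were computed here and not taken from the deposited files. The Taf fit held 9 libraries and 15743 genes, the Myc fit 6 and 14563, and the fit of differences 15 and 16286. Benjamini-Hochberg adjustment ran over all genes of a fit, and scripts were tested on simulated data. Alternatives were RLE, library-total and nuclear-row scaling, no filter, DESeq2 1.42.0, limma-trend (3.58.1) on log2(FPKM + 1) and log2(FPKM + 0.1), other sets of libraries in the fit, each library left out, a replicate block and, chosen after seeing the data, members summed with near copies. The sources used here do not state how reads were divided between near copies, so genes with copies are less certain. Lengths, copies and chromosomes came from GENCODE M21 and promoters from RefSeq, both on GRCm38, matched by symbol.

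The members and lists were chosen with earlier results of these data known. Genes were named by a rule: the mitochondrial genes, the 6 largest falls and rises per knockout among calls without overlap, the highest and lowest FPKM per complex, isoforms, genes called in every knockout or in opposite directions, those called between the Taf knockouts or between Taf and Myc effects, the genes next to the count minimum, targets, and up to 2 genes per list and comparison with the smallest p. Other genes are named to complete a group and were chosen after their values were seen.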

Additional observations from a re-analysis of the deposited data

Results flagged for a closer look

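The effect of losing Taf6l differed from that of losing Taf5l for Cox5b and Cox6a1, in opposite directions against the wild type both share. The direct comparison of Taf6l-KO with Taf5l-KO gave a log2 difference of -0.28 for Cox5b and -0.45 for Cox6a1, past the threshold of edgeR's test over all genes in both. The opposite calls against WT-Taf were less firm. Both falls in Taf6l-KO were lost with library totals, and all calls against WT-Taf in the fit of all 15 libraries. Those of Cox6a1 were also lost with limma-trend and without single libraries, as given above.

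The effect of losing Taf5l differed from that of losing Myc for Atp5h, by -0.44 on the log2 scale, and for Cox5a, by -0.39, since both fell in Taf5l-KO and were higher in Myc-KO. For Cox5a the effect of losing Taf6l also differed from that of losing Myc, by -0.59. The rises of Atp5h and Cox5a in Myc-KO each depended on 4 of the 6 libraries, as given with their values above.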

How the results depend on the processing

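Counts of members past the threshold moved with the fit more than with single genes' directions. Falls in Taf5l-KO numbered 26, 15 with all 15 libraries in 1 fit and 13 with limma-trend on either FPKM scale, and 20 to 27 with a library left out. Rises numbered 13, 7 with DESeq2, 3 in the fit of all libraries, 5 with limma-trend, and 7 to 13 with a library left out (7 without Taf5l-KO replicate 2 or WT-Taf replicate 3). Falls in Taf6l-KO numbered 39, 23 with library totals, 24 in the fit of all libraries and 34 to 41 with a library left out. With library totals 11.7% of all genes fell and 25.9% rose in Taf6l-KO, in place of 18.2% and 19.1%. The 1 rise, Atp5sl, became 3 with library totals and 0 with DESeq2, all libraries, only the groups compared, limma-trend, a minimum of 1000 counts or without the 2 non-subunits, and 0 to 1 with a library left out. The Taf6l-KO median over nuclear subunits, -0.09, was -0.10 with RLE scaling and with all libraries, -0.026 with library totals, -0.11 with DESeq2, only the groups compared and limma-trend, -0.12 with copies summed, and -0.106 to -0.0917 with a library left out. The Taf5l-KO median over nuclear subunits lay between -0.05 and 0.00225 with a library left out.

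Falls in Myc-KO numbered 6, 3 with library totals, 12 with all libraries, 1 with limma-trend, and 2 to 14 with a library left out (2 without WT-Myc replicate 3, 14 without Myc-KO replicate 3). Rises numbered 9, 15 with library totals or DESeq2, 14 with nuclear-row scaling, 19 with all libraries, and 4 to 26 with a library left out. Of all genes in Myc-KO, 16.8% fell and 18.5% rose with library totals, and 18.2% and 16.9% with nuclear-row scaling. Between Taf6l-KO and Taf5l-KO, 23 lower members became 8 with library totals, 38 with no filter, 7 with all libraries, 10 and 9 with limma-trend, and 13 to 30 with a library left out. The 2 higher members became 9 with library totals and 1 with all libraries, limma-trend or off chromosomes X, 11 and 14, and 1 to 3 with a library left out. For Taf5l less Myc, 19 falls ranged from 15 to 30 with a library left out, and 1 rise became 4 with no filter, 3 with DESeq2, 2 with copies summed, and 1 to 11 with a library left out. For Taf6l less Myc, 28 falls ranged from 22 to 46, and 1 rise became 2 with library totals, 0 off chromosomes X, 11 and 14, and 1 to 11 with a library left out. The cause of these shifts was not tested.

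Of 2481 values of 115 named calls under alternatives, 2125 stayed on their side of the threshold, 351 lost the call and 5 reversed. Cox7b in Taf5l-KO was 0.107 on both FPKM scales, Cox7b for Taf5l less Myc was 0.000283 and 0.000195 there, and Ndufb4 for Taf5l less Myc was 0.0354 with copies summed. Replicate numbers did not pair the libraries, since same-numbered libraries correlated at -0.255 to 0.0713. With a replicate block, Myc-KO had 1 fall and 4 rises, and the other counts stayed within 1.5 times the values above.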
